A study of Mus musculus with 30 samples.

Results

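The extracellular matrix genes FN1, ELN, FBN1, FBLN1, FBLN5, POSTN, TNC, SPARC, THBS1 and SPP1 were described in EDL muscle of mice with experimental autoimmune encephalomyelitis (EAE) and in their controls. These 10 genes were chosen by name, with earlier results of these data known. The row of each was taken by its gene symbol from the 21073 genes of the deposited expression table. Each of the 10 symbols was found once. All of them encode proteins that cells secrete into the matrix around muscle fibres, vessels and tendon.

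Fibronectin, the product of FN1, is a large glycoprotein that cells bind through integrins and assemble into fibrils on which other matrix proteins are laid down. Elastic fibres have a core of elastin (ELN) that is deposited on microfibrils of fibrillin-1 (FBN1), and fibulins such as fibulin-1 (FBLN1) and fibulin-5 (FBLN5) bind these fibres. Matricellular proteins (POSTN, TNC, SPARC, THBS1 and SPP1) are secreted into the matrix but mainly tune how cells and fibrils interact, and several of them are known from growing, loaded or injured muscle. In muscle this matrix is made largely by fibroblasts and other cells between the fibres, not by the fibres alone.

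All mice were female wild-type SJL mice. The unimmunized mice (Ctrl) received no antigen and no adjuvant. The OVA-immunized mice received ovalbumin (OVA) in complete Freund's adjuvant (CFA), and the EAE-induced mice received the PLP peptide of myelin proteolipid protein in CFA, without pertussis toxin according to the study. EDL is a fast limb muscle, and it was taken whole on day 14, at the peak of EAE, or on day 40, in the chronic remission phase, from 5 mice in each of the 6 groups. No mouse was sampled on both days, which makes every comparison of days one between different animals. The EAE-induced and unimmunized mice differed in the peptide and in CFA, and these cannot be told apart in that comparison, whereas the OVA-immunized mice shared the adjuvant with the EAE-induced mice. EAE in this model was mild and relapsing, and the age of the mice was not given in the sources used here.

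Expression was measured by RNA-Seq of poly(A) RNA and is given as RPKM, the reads on a gene's exons divided by the length of those exons and by library size. An estimated 18.1M to 31.5M reads per mouse fell on genes, with a median of 21.6M, and the highest value was that of the library of replicate 3 of the EAE-induced mice on day 14. In this depth an estimated 1877 to 19456 reads fell on SPARC, 196 to 1003 on TNC and 22 to 502 on SPP1 in single mice, so that counting error weighs most on SPP1. The summed level of 8 markers of skeletal muscle fibres lay between 51150 and 93850 RPKM in all mice, but not evenly over the groups. On day 14 it was 70480 to 93850 RPKM in unimmunized, 63050 to 84060 in OVA-immunized and 51150 to 63580 RPKM in EAE-induced mice. Such a sum is carried by its most abundant genes and does not describe every marker. Because whole muscle was sequenced, fewer cells of a type and less RNA per cell cannot be told apart in any of the values.

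The levels of the 10 genes spanned a wide range in unimmunized mice on day 14. SPARC was the most abundant gene per length with 268 ± 84.3 RPKM (SD, n = 5), followed by FN1 with 41.3 ± 14.6 RPKM and ELN with 22.3 ± 2.63 RPKM. FBLN1 with 14.5 ± 2.15 RPKM and FBN1 with 14.2 ± 4.16 RPKM came next and differed by less than their spread. POSTN with 10.8 ± 3.52 RPKM and THBS1 with 8.43 ± 3.63 RPKM also overlapped, as did FBLN5 with 5.40 ± 0.67 RPKM and TNC with 4.59 ± 1.60 RPKM. SPP1 was the lowest with 2.16 ± 0.49 RPKM. SPARC made up 67.4% ± 6.63 of the summed RPKM of the 10 genes in these mice (mean ± SD, n = 5). This order shifted in EAE-induced mice on day 14, in which SPARC made up 43.1% ± 2.01 and FBLN1 stood in place 2 of the 10 genes instead of place 4.

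**Figure D1:**
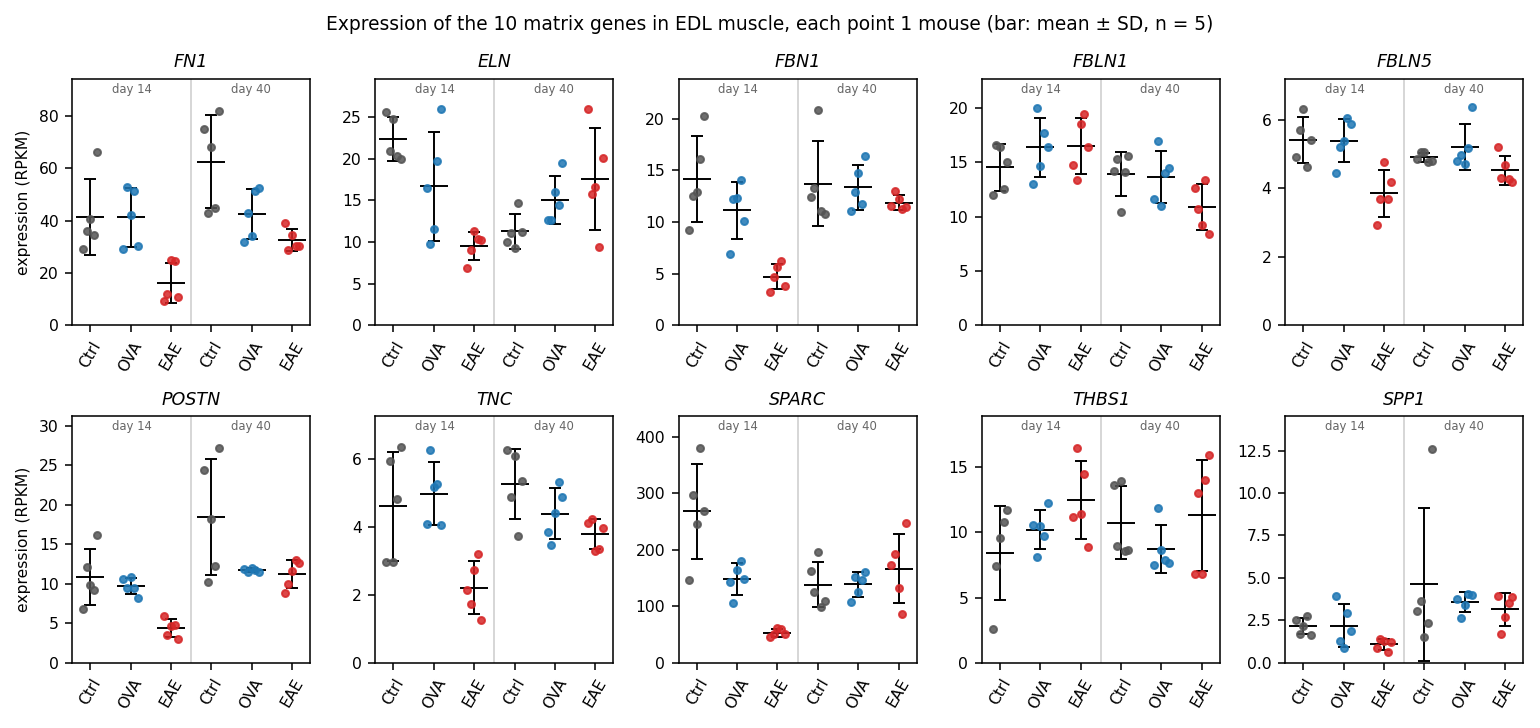
Expression of each of the 10 genes in RPKM (vertical axis, linear, from 0) in every mouse of the 6 groups (horizontal axis), with each point standing for 1 mouse and the bar for the mean ± SD of 5 mice. On day 14 the EAE-induced mice (red) lay below all unimmunized mice (grey) in FN1, ELN, FBN1, POSTN, SPARC and SPP1. FBLN1, FBLN5, TNC and THBS1 overlapped. On day 40 FN1 was the only gene of the 10 without overlap between these groups. How many of all genes were without overlap was not counted, so this separation is a description only.

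The comparison of day 14 asked how expression in the muscle differs at the peak of EAE. In it, 6 of the 9 genes tested were lower in EAE-induced mice as compared to unimmunized mice. These were SPARC, FBN1, FN1, POSTN, ELN and TNC, by 2.03-fold to 4.83-fold. None of the 9 was called higher. A gene was called when the Benjamini-Hochberg adjusted p of limma was below 0.05 over all genes tested and its fold change was above 1.5. Of all 8771 genes tested in this comparison, 11.8% were called lower and 14.6% higher. These 6 genes were also called lower against OVA-immunized mice, where 9.28% of 8674 genes were called lower and 11.0% higher. Both comparisons share the EAE-induced mice and are given side by side. SPP1 was below the minimum of 3 RPKM in all groups on day 14 and is therefore described apart.

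SPARC (osteonectin, a collagen-binding glycoprotein; Entrez gene 20692, chromosome 11 of GRCm38 from 55394159 to 55420080) had the largest change of the 10 genes on day 14. It measured 147, 297, 246, 380 and 269 RPKM in the 5 unimmunized mice on day 14. The OVA-immunized mice measured 143, 106, 164, 181 and 148 RPKM, and the EAE-induced mice 44.8, 50.3, 62.1, 58.9 and 50.3 RPKM. Every EAE-induced mouse was below every mouse of both control groups, and the EAE-induced mice were also the most alike. By limma, SPARC was lower than in unimmunized mice by a log2 fold change of -2.27 (SE 0.20, adjusted p = 1.37e-06) and lower than in OVA-immunized mice by one of -1.46 (SE 0.20, adjusted p = 5.98e-05). SPARC was intermediate in OVA-immunized mice, whose log2 fold change of -0.81 against unimmunized mice was not called (adjusted p = 0.198). Without replicate 1 of the unimmunized mice, whose level of 147 RPKM was the lowest of its group, this difference was called at -1.01 (adjusted p = 0.0181).

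FN1 (Entrez gene 14268, chromosome 1 from 71585473 to 71653280) measured 29.2, 36.0, 40.5, 34.6 and 66.3 RPKM in unimmunized mice on day 14. It measured 29.1, 52.7, 42.3, 51.4 and 30.5 RPKM in OVA-immunized mice. In EAE-induced mice it was 9.43, 11.8, 24.8, 24.5 and 10.7 RPKM, so that replicates 3 and 4 lay well above the other 3 mice but still below all controls. This gave FN1 a log2 fold change of -1.41 relative to unimmunized mice (SE 0.29, adjusted p = 0.00121 by limma) and of -1.42 relative to OVA-immunized mice (SE 0.29, adjusted p = 0.00142).

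Among the elastic fibre genes, the microfibril gene FBN1 (Entrez gene 14118, chromosome 2 from 125300594 to 125506485) showed the clearest separation on day 14. FBN1 measured 9.23, 12.5, 12.9, 16.1 and 20.2 RPKM in unimmunized and 6.89, 12.2, 12.3, 14.1 and 10.1 RPKM in OVA-immunized mice. It measured 3.25, 4.71, 5.60, 6.24 and 3.78 RPKM in EAE-induced mice, with no overlap with either control group. FBN1 was called at -1.56 on the log2 scale relative to unimmunized mice (SE 0.23, adjusted p = 7.57e-05 by limma) and at -1.22 relative to OVA-immunized mice (SE 0.23, adjusted p = 0.00068).

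ELN (Entrez gene 13717, chromosome 5 from 134702595 to 134747368) measured 25.6, 21.0, 24.8, 20.4 and 20.0 RPKM in unimmunized mice on day 14. The OVA-immunized mice were widely spread at 16.4, 9.77, 11.5, 19.7 and 25.9 RPKM, and the EAE-induced mice had 6.93, 9.01, 11.3, 10.3 and 10.2 RPKM. EAE-induced mice were thus below all unimmunized mice but overlapped with OVA-immunized mice, of which replicate 2 fell among them. Relative to unimmunized mice ELN had a log2 fold change of -1.23 (SE 0.21, adjusted p = 0.000333 by limma). Against OVA-immunized mice it was -0.73 (SE 0.21, adjusted p = 0.0142), and this call rested on replicate 5 of the OVA-immunized mice, since the value without it was -0.55, under the fold threshold. OVA-immunized and unimmunized mice differed by -0.50 on the log2 scale, which was not called (adjusted p = 0.459).

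The fibulins were not called in either comparison. FBLN5, which is needed to assemble elastic fibres (Entrez gene 23876, chromosome 12 from 101746565 to 101819119), measured 4.91, 5.71, 6.33, 4.63 and 5.42 RPKM in unimmunized and 2.93, 3.67, 4.78, 3.68 and 4.17 RPKM in EAE-induced mice on day 14. Its log2 fold change of -0.49 (limma adjusted p = 0.00736) passed the p threshold but not the fold threshold, as did that of -0.49 against OVA-immunized mice (adjusted p = 0.0094). With median-of-ratios scaling of the libraries the difference from unimmunized mice was -0.59 and was called. FBLN1 (Entrez gene 14114, chromosome 15 from 85205949 to 85286294) measured 12.0, 16.6, 16.4, 12.6 and 15.1 RPKM in unimmunized and 14.7, 13.4, 18.5, 19.5 and 16.4 RPKM in EAE-induced mice, with wide overlap. FBLN1 differed by 0.18 on the log2 scale with a 95% confidence interval from -0.11 to 0.48 (limma adjusted p = 0.29).

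POSTN (periostin, a matricellular protein of collagen-rich tissue; Entrez gene 50706, chromosome 3 from 54359267 to 54391041) measured 6.84, 12.1, 9.79, 9.21 and 16.2 RPKM in unimmunized mice on day 14. It measured 10.6, 9.46, 10.8, 9.47 and 8.17 RPKM in OVA-immunized mice and 5.92, 3.49, 4.66, 4.78 and 3.02 RPKM in EAE-induced mice. No EAE-induced mouse reached the lowest control mouse. POSTN had log2 fold changes of -1.27 relative to unimmunized mice (SE 0.20, adjusted p = 0.000174 by limma) and of -1.16 relative to OVA-immunized mice (SE 0.20, adjusted p = 0.000415).

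TNC (tenascin-C, which is known from tendon and injured muscle; Entrez gene 21923, chromosome 4 from 63959785 to 64047015) measured 2.96, 5.92, 2.95, 4.82 and 6.33 RPKM in unimmunized mice on day 14. It measured 4.09, 6.26, 5.17, 5.26 and 4.04 RPKM in OVA-immunized mice and 2.14, 1.73, 2.73, 3.19 and 1.26 RPKM in EAE-induced mice. EAE-induced replicate 4 was above the 2 lowest unimmunized mice, and no EAE-induced mouse reached the OVA-immunized mice. TNC was called at -1.02 relative to unimmunized mice (SE 0.26, adjusted p = 0.00442 by limma) and at -1.18 relative to OVA-immunized mice (SE 0.26, adjusted p = 0.00207), both on the log2 scale.

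THBS1 (thrombospondin-1, which can activate latent TGF-beta; Entrez gene 21825, chromosome 2 from 118111876 to 118127133) was not called in either comparison. It measured 2.60, 7.45, 9.60, 10.8 and 11.7 RPKM in unimmunized and 11.2, 16.5, 11.4, 14.5 and 8.91 RPKM in EAE-induced mice on day 14. The ranges overlapped, and replicate 1 of the unimmunized mice stood far below the rest. At 0.70 its log2 fold change was not called (95% confidence interval from 0.04 to 1.35, limma adjusted p = 0.0738), nor was that of 0.27 against OVA-immunized mice (adjusted p = 0.511). The first of these fell to 0.32 without replicate 1 of the unimmunized mice (adjusted p = 0.149). It was called with all 30 mice in 1 model (adjusted p = 0.0421), at 0.83 without replicate 4 and at 0.85 without replicate 5 of the unimmunized mice.

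SPP1 (osteopontin, a phosphoprotein known from bone and macrophages; Entrez gene 20750, chromosome 5 from 104435111 to 104441053) was low on day 14. It measured 2.52, 1.69, 2.18, 2.75 and 1.65 RPKM in unimmunized, 3.93, 1.27, 0.847, 2.94 and 1.88 RPKM in OVA-immunized, and 0.854, 1.42, 1.27, 0.630 and 1.23 RPKM in EAE-induced mice. All EAE-induced mice were below all unimmunized mice, whereas they overlapped with the OVA-immunized mice. The mean difference from unimmunized mice was -0.96 on the log2 scale, with an exact two-sided permutation p of 0.00794 (adjusted p = 0.0238 over 3 comparisons on day 14), which is the smallest p that 5 against 5 mice can give. The difference from OVA-immunized mice was -0.81 (exact two-sided permutation p = 0.111, adjusted p = 0.167). With the minimum lowered to 1 RPKM, SPP1 was called lower against unimmunized mice by limma (adjusted p = 0.0267) and not against OVA-immunized mice (adjusted p = 0.0672).

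Between OVA-immunized and unimmunized mice, 0 of the 9 genes were called on day 14, against 0.142% of all genes tested by limma. At an unadjusted p below 0.05, 821 of all genes tested differed in this comparison. The log2 fold changes of the 9 genes lay between -0.81 in SPARC and 0.43 in THBS1, with ELN at -0.50 and FBN1 at -0.34. The smallest were those of FN1, at 41.2 ± 11.1 against 41.3 ± 14.6 RPKM, and FBLN5, at 5.39 ± 0.62 against 5.40 ± 0.67 RPKM (SD, n = 5).

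**Figure D2:**
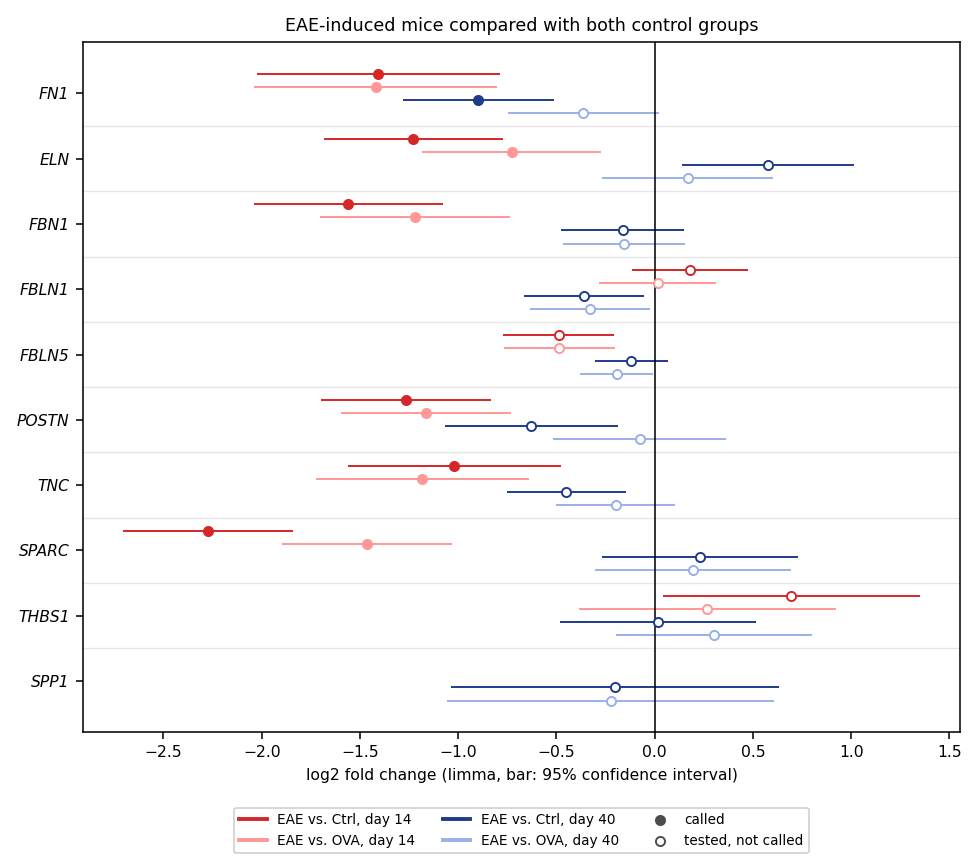
Log2 fold changes of the 10 genes (vertical axis) between EAE-induced mice and unimmunized or OVA-immunized mice on day 14 (red) and day 40 (blue), with 95% confidence intervals from limma as bars and filled points for called differences. The day 14 points of FN1, ELN, FBN1, POSTN, TNC and SPARC are filled on the left of 0, and of the day 40 points only that of FN1 against unimmunized mice is filled, at -0.90. SPP1 was not tested on day 14.

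Promoter sequences are shown for 4 of the genes that fell together on day 14 and, for contrast, for FBLN1, which was not called. RefSeq gave windows for 7 of the 10 genes, 12 windows in all, on build GRCm38.p6, and none for FN1, ELN and THBS1. Each sequence is the 250 bases before a transcription start, written 5′ to 3′ on the strand of the gene, and capitals mark matches to any of 4 short motifs on either strand, the TATA box (TATAAA), the AP-1 site (TGANTCA), the SMAD element (CAGAC) and the GC box (GGGCGG).
SPARC, chr11:55420081-55420330, minus strand: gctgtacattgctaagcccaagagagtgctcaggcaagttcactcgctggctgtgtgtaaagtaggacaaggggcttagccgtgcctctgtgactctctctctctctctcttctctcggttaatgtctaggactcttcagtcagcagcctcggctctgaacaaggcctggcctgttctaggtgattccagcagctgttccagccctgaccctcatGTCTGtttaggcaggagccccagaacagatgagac
FBN1, chr2:125506439-125506688, minus strand: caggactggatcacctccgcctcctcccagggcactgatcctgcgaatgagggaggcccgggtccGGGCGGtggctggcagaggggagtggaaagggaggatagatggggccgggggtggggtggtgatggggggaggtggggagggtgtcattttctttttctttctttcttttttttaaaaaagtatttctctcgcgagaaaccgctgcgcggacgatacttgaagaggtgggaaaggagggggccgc
POSTN, chr3:54360857-54361106, plus strand, the downstream of its 2 starts: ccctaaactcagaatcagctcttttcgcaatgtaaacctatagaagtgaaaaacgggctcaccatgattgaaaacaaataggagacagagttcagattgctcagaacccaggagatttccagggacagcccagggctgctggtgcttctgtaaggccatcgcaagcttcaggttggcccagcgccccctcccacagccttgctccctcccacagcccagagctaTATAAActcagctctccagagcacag
TNC, chr4:64047016-64047265, minus strand, the upstream of its 2 starts: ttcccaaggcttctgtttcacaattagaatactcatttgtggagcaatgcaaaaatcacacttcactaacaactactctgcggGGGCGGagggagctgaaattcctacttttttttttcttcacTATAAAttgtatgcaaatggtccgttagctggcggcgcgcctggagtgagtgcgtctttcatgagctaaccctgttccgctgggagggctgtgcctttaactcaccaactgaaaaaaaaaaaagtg
FBLN1, chr15:85205699-85205948, plus strand, the upstream of its 2 starts: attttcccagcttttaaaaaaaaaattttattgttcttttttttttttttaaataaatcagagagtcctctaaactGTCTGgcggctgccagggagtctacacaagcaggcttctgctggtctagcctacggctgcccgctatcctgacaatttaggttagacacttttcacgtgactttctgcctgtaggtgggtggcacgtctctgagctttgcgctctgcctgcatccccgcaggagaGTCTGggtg

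The TATA box letters stood at -26 to -21 before the downstream start of POSTN and at -126 to -121 in TNC. The window of FBN1 held the GC box letters at -185 to -180, and its GC content of 59.2% was above the median of 52.4% over all windows, while that of SPARC was 54.0%. SPARC held the SMAD element letters at -35 to -31, and so did the uncalled FBLN1 at -174 to -170 and at -9 to -5. Over the 12 windows of the 7 genes, of which those of FBLN1 and of TNC overlap, the SMAD element letters were in 8, the GC box letters in 5, the TATA box letters in 4 and the AP-1 letters in 0. Of all 32851 windows of this length, 42.2% held the SMAD element, 32.7% the GC box, 12.4% the TATA box and 6.7% the AP-1 letters. No match overlapped another, and a match says only that the letters are there.

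The wider families of these genes were examined with lists of related genes, also chosen with earlier results of these data known. Of 13 elastic fibre partners tested between EAE-induced and unimmunized mice on day 14, 9 were called lower and 1 higher, with a median log2 fold change of -1.01 beside 0.11 for all genes tested. The largest falls were those of the microfibril-associated genes MFAP4 at -2.81 and MFAP5 at -1.57 and of LTBP4, a latent TGF-beta binding protein, at -1.31. MFAP4 dropped from 25.8 ± 6.79 RPKM in unimmunized to 3.62 ± 1.20 RPKM in EAE-induced mice (SD, n = 5). LTBP3 was the partner called higher, at 0.60, close to the fold threshold. Against OVA-immunized mice, 7 of 12 partners were called lower and 1 higher, led by MFAP4 at -1.94.

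Of 13 other matricellular genes, 9 were called lower and 1 higher against unimmunized mice on day 14, with a median log2 fold change of -0.82. THBS3, a relative of THBS1, fell by 1.91 on the log2 scale, NOV by 1.38 and COMP, a thrombospondin of tendon and cartilage, by 1.28. CYR61, an immediate early gene of the CCN family, rose at 1.79 against unimmunized and at 1.93 against OVA-immunized mice. Against OVA-immunized mice, 6 of 13 were called lower and CYR61 alone higher.

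Receptors for these proteins were called in both directions. Of 11 matrix receptor genes tested against unimmunized mice on day 14, 4 were called higher and 1 lower, with a median of 0.38. SDC4, a heparan sulfate proteoglycan that binds fibronectin, rose at 0.85, the laminin receptor subunit ITGA7 at 0.65 and ITGB1, the beta subunit shared by many integrins, at 0.62. CD44, a hyaluronan receptor that also binds SPP1, was lower at -0.79. Against OVA-immunized mice, 2 of 11 were called higher (SDC4 at 0.81 and ITGA7 at 0.62) and CD44 lower at -0.92. The values of ITGA7 and ITGB1 were close to the fold threshold, and these calls were not recomputed with other scalings.

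Of 10 genes of TGF-beta ligands, receptors and feedback regulators, 4 were called higher and 0 lower against unimmunized mice by limma, with a median of 0.41. TGFBR1, the type I receptor, rose at 1.33, the feedback gene SKIL at 0.96 and the ligand TGFB3 at 0.86. Against OVA-immunized mice 3 of the 10 were called higher, with TGFBR1 at 1.03 and TGFB3 at 0.89. Of all genes tested against unimmunized mice, 4855 had an unadjusted p below 0.05.

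**Figure D3:**
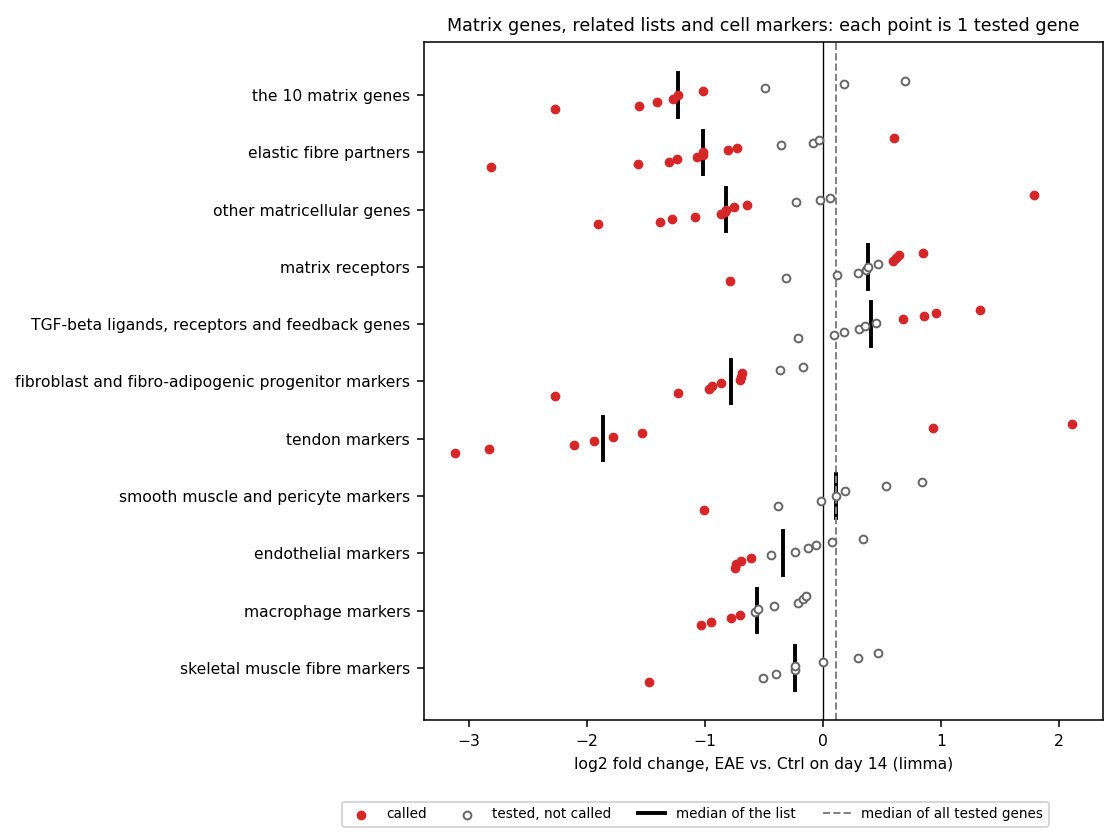
Log2 fold changes between EAE-induced and unimmunized mice on day 14 (horizontal axis) of the 10 matrix genes and of 10 related lists (vertical axis), with each point standing for 1 tested gene, red if called, and the black bar for the median of the list. The dashed line at 0.11 is the median of all tested genes. Left of it lie the medians of the matrix genes, elastic fibre partners, other matricellular genes, fibroblast markers and tendon markers. Those of the macrophage (-0.56), endothelial (-0.34) and muscle fibre markers (-0.24) also lie left of it. The median of the smooth muscle markers (0.11) lies almost on it, and those of the receptors and the TGF-beta genes lie right of it.

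Markers of other cells moved with these genes on day 14. Of 10 markers of fibroblasts and fibro-adipogenic progenitors tested, 8 were called lower in EAE-induced than in unimmunized mice and 0 higher by limma. PI16 was at -2.28, COL15A1 at -1.23 and CD34 at -0.97, while PDGFRA and PDGFRB, named after their values were seen, were the 2 not called. The summed level of the fibroblast markers was 1517 to 1686 RPKM in unimmunized, 1077 to 1471 in OVA-immunized and 767 to 1106 RPKM in EAE-induced mice. Tendon markers summed to 425.6 to 597.5, 329.1 to 459.0 and 204.3 to 300.5 RPKM in the same order. Of 8 tendon markers tested, 6 were called lower, led by CILP2 at -3.12, TNMD at -2.83 and COL11A1 at -2.11, and the transcription factors SCX at 2.12 and EGR1 at 0.94 were called higher. Their part in the changes of the 10 matrix genes was not tested.

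Of 10 macrophage markers 4 were called lower and 0 higher by limma, and their summed level was 286.1 to 428.2 RPKM in unimmunized, 269.7 to 410.1 in OVA-immunized and 139.7 to 307.8 RPKM in EAE-induced mice on day 14. Of 10 endothelial markers 4 were called lower and 0 higher, with sums of 147.0 to 197.7, 132.3 to 209.1 and 123.0 to 167.2 RPKM. Of 7 smooth muscle and pericyte markers, LMOD1 alone was called lower, at -1.01, and the sums of 122.5 to 173.4 RPKM in unimmunized and 128.4 to 152.3 RPKM in EAE-induced mice overlapped. Of 8 markers of skeletal muscle fibres 1 was called lower, PVALB at -1.47, and 0 higher. Their sums were 70480 to 93850 RPKM in unimmunized and 51150 to 63580 RPKM in EAE-induced mice, without overlap. No marker of any of these lists was at 0 in all mice of a group. Their part in the result was not tested either.

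The 10 genes varied together to different degrees among the 30 mice. FN1 correlated with TNC at r = 0.875, with FBN1 at r = 0.846 and with POSTN at r = 0.844, and FBN1 correlated with SPARC at r = 0.814 (Pearson, log2 scale). ELN correlated most with SPARC at r = 0.694 and little with FN1 at r = 0.256. FBLN1 and THBS1 stood apart from the rest, with r of 0.201 and 0.042 or below with every other gene of the 10. These mice share groups and libraries, so the values describe the samples only. The genes most like SPARC over the 9049 genes compared were the type I collagen genes COL1A1 (r = 0.978) and COL1A2 (r = 0.969) and the carboxypeptidase gene CPZ (r = 0.954). FBN1 was most like the type VI collagen genes COL6A3 (r = 0.954) and COL6A1 (r = 0.953) and the nidogen gene NID1 (r = 0.947). POSTN was most like KCNAB1 (r = 0.893), followed by COL5A2 (r = 0.889) and SDC2 (r = 0.879). The closest genes to TNC were BGN, which encodes biglycan (r = 0.895), KERA (r = 0.883) and PXDN (r = 0.878). The closest gene to ELN was ENTPD2 (r = 0.886), followed by TPSB2 and by the microfibril gene MFAP2 (r = 0.85).

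By day 40, in the chronic remission phase, most of the differences from unimmunized mice were no longer called. Of the 10 genes, all of which were tested, FN1 alone was called lower and 0 were called higher, beside 0.391% of 8691 genes called lower. FN1 measured 75.0, 43.0, 67.9, 44.9 and 81.9 RPKM in unimmunized mice. It measured 31.8, 43.0, 34.2, 51.3 and 52.3 RPKM in OVA-immunized and 39.2, 28.7, 34.5, 30.1 and 30.4 RPKM in EAE-induced mice. The EAE-induced mice were below all unimmunized mice but overlapped with the OVA-immunized mice. In limma this was a log2 fold change of -0.90 (SE 0.18, adjusted p = 0.0236). This call was lost when the model held only the compared groups (adjusted p = 0.0592) or all 30 mice (adjusted p = 0.255), and also without replicate 1, 3 or 5 of the unimmunized or replicate 3 of the EAE-induced mice.

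POSTN was unevenly distributed on day 40. The unimmunized mice measured 24.3, 10.2, 18.1, 12.3 and 27.1 RPKM, whereas the OVA-immunized mice lay close together at 11.9, 11.4, 12.0, 11.7 and 11.5 RPKM and the EAE-induced mice measured 8.80, 9.98, 11.6, 13.0 and 12.7 RPKM. Replicates 1, 3 and 5 of the unimmunized mice, which also had the highest FN1, were above all mice of the other groups. POSTN differed from unimmunized mice by -0.63 on the log2 scale (limma adjusted p = 0.0858) and was called without replicate 2 of them, at -0.82, or without replicate 4, at -0.75. TNC had a log2 fold change of -0.45 (adjusted p = 0.0793), with 5.25 ± 1.03 RPKM in unimmunized and 3.78 ± 0.44 RPKM in EAE-induced mice (SD, n = 5).

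ELN had its lowest mean of the 3 groups of day 40 in unimmunized mice. It measured 10.0, 11.1, 9.26, 14.7 and 11.2 RPKM in unimmunized and 25.9, 15.8, 16.6, 9.38 and 20.1 RPKM in EAE-induced mice, so that 4 of 5 EAE-induced mice were above every unimmunized mouse. Its log2 fold change of 0.58 was not called (limma adjusted p = 0.102) and was called without replicate 4 of the unimmunized mice, at 0.68, or without replicate 4 of the EAE-induced mice, at 0.78. SPARC measured 163, 125, 196, 99.2 and 108 RPKM in unimmunized and 173, 193, 132, 86.8 and 248 RPKM in EAE-induced mice, with full overlap. FBN1 was 13.7 ± 4.10 RPKM in unimmunized, 13.4 ± 2.17 in OVA-immunized and 11.9 ± 0.73 RPKM in EAE-induced mice (SD, n = 5). The levels of FBLN1, FBLN5, THBS1 and SPP1 also overlapped between these groups.

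No gene of the 10 was called between EAE-induced and OVA-immunized mice on day 40, where limma called 0.209% of 8598 genes and 1500 had an unadjusted p below 0.05. The OVA-immunized and unimmunized mice differed in 0 of the 10 genes and in 0% of all genes tested by limma, with 272 genes at an unadjusted p below 0.05. Against unimmunized mice on day 40, 0 genes of the elastic fibre, matricellular, receptor and TGF-beta lists were called by limma. Of all 8691 genes tested there, only 34 were called lower and 6 higher, and 2423 had an unadjusted p below 0.05.

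Within the EAE-induced mice, 7 of the 10 genes were higher on day 40 than on day 14 and 1 was lower, where 8.36% of 8709 genes were called higher and 12.7% lower. SPARC rose from 53.3 ± 7.06 to 167 ± 61.1 RPKM (SD, n = 5), which is 1.57 on the log2 scale (SE 0.23, adjusted p = 3.64e-06 by limma). POSTN rose at 1.36, FBN1 at 1.35, FN1 at 1.12, ELN at 0.82 and TNC at 0.81 on the log2 scale. The days did not overlap in SPARC, POSTN, FBN1, FN1 and TNC, and they overlapped in ELN. Such separation was not counted over all genes. SPP1 rose from 1.08 ± 0.33 to 3.14 ± 0.96 RPKM, at 1.44 (adjusted p = 0.00304), and all day 40 mice, at 3.94, 1.67, 2.68, 3.54 and 3.87 RPKM, were above all day 14 mice. SPP1 passed the minimum of 3 RPKM only through its day 40 level, and it was also called with the minimum at 1 RPKM (adjusted p = 0.00319) and without a minimum (adjusted p = 0.00521). The controls moved the same way in SPP1, at 0.86 in OVA-immunized and 0.69 in unimmunized mice, neither of them called (limma adjusted p = 0.164 in both). The limma interaction of SPP1 was not called against unimmunized (adjusted p = 0.257) or OVA-immunized mice (adjusted p = 0.417). FBLN5 was not called at 0.24 (adjusted p = 0.0717).

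FBLN1 was the gene that was lower on day 40 in EAE-induced mice. It measured 14.7, 13.4, 18.5, 19.5 and 16.4 RPKM on day 14 and 12.7, 10.7, 9.26, 13.3 and 8.37 RPKM on day 40, without overlap. FBLN1 changed by -0.61 on the log2 scale (SE 0.15, limma adjusted p = 0.00126), close to the fold threshold. The call was lost at -0.57 with a pseudocount of 1, at -0.51 with median-of-ratios scaling and at -0.48 with quantile normalization, and also without replicate 3 or 4 of day 14 or replicate 3 or 5 of day 40.

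The unimmunized mice also differed between the days, although they received no treatment. In them 1 of the 10 genes was higher and 2 were lower on day 40, where 5.02% of 8788 genes were called higher and 4.35% lower. ELN fell from 22.3 ± 2.63 to 11.3 ± 2.09 RPKM (SD, n = 5), which is -0.99 on the log2 scale (SE 0.22, adjusted p = 0.00388 by limma), without overlap. SPARC fell from 268 ± 84.3 to 138 ± 40.4 RPKM, at -0.94 (SE 0.23, adjusted p = 0.00664). POSTN was higher at 0.72 (adjusted p = 0.017), a call that was lost without replicate 1 of day 14 (0.57) or without replicate 1 (0.60) or 5 (0.56) of day 40. FN1 was not called at 0.61 (adjusted p = 0.0685) and was called without replicate 5 of day 14, at 0.79, without replicate 2, at 0.73, or without replicate 4 of day 40, at 0.71. In OVA-immunized mice 0 of the 10 genes were called between the days, against 3.97% of 8648 genes by limma, with 2124 at an unadjusted p below 0.05. Their POSTN was 8.17 to 10.85 RPKM on day 14 and 11.45 to 11.96 RPKM on day 40, without overlap, at 0.27 (limma adjusted p = 0.464).

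**Figure D4:**
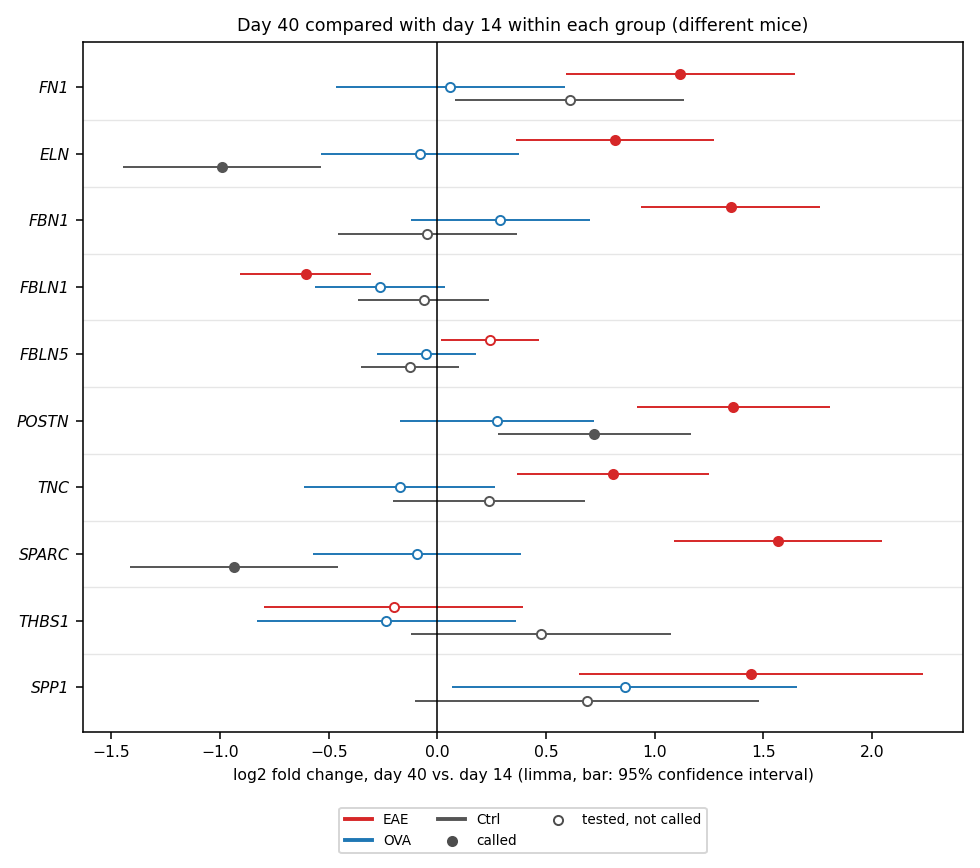
Log2 fold changes of the 10 genes (vertical axis) between day 40 and day 14 within EAE-induced (red), OVA-immunized (blue) and unimmunized mice (grey), with 95% confidence intervals from limma as bars and filled points for called differences. In SPARC and ELN the EAE-induced mice lie right of 0 (1.57 and 0.82) and the unimmunized mice left of it (-0.94 and -0.99), while the OVA-immunized mice have no filled point.

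An interaction term, fitted to the 30 mice at once, tested whether the difference of EAE-induced mice from a control group was unlike on day 14 and day 40. Against unimmunized mice the difference was higher on day 40 than on day 14 by 2.50 on the log2 scale in SPARC (SE 0.33, limma adjusted p = 1.56e-06), by 1.81 in ELN (SE 0.31, adjusted p = 5.84e-05) and by 1.40 in FBN1 (SE 0.28, adjusted p = 0.000325). FBLN1 changed in the other direction at -0.54 (adjusted p = 0.0322), a call that was lost with both other scalings, without the filter on low values and without replicate 1 or 4 of the unimmunized or 3 or 4 of the EAE-induced mice on day 14, or replicate 2 or 5 of the unimmunized or 3 or 5 of the EAE-induced mice on day 40 (-0.51 to -0.46 without one of these mice). These were 3 of 10 genes called in the higher and 1 in the lower direction, where 16.5% and 32.1% of 9013 genes were called. In SPARC and ELN the unimmunized mice contributed to this value, since their own levels fell between the days.

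Against OVA-immunized mice, in which none of the 10 genes was called between the days, 6 of the 10 genes passed this test and all 6 were higher, beside 11.1% of 8935 genes called higher. SPARC changed by 1.66 (SE 0.33, limma adjusted p = 0.000336), POSTN by 1.09 (adjusted p = 0.00752), FBN1 by 1.06 (adjusted p = 0.00507), FN1 by 1.06 (adjusted p = 0.0257), TNC by 0.98 (adjusted p = 0.0139) and ELN by 0.90 (adjusted p = 0.0286). The values of FN1 and ELN were close to the threshold. FN1 was lost without replicate 1 (0.89), 2 (0.97) or 5 (0.94) of the EAE-induced mice on day 14 or replicate 1 of the OVA-immunized mice on day 40 (0.96). ELN was lost, at 0.72 to 0.84, without replicate 4 or 5 of the OVA-immunized or replicate 1 of the EAE-induced mice on day 14, or without replicate 1 of the OVA-immunized or 1 or 5 of the EAE-induced mice on day 40. ELN was also lost without the filter on low values (adjusted p = 0.0501). The difference between OVA-immunized and unimmunized mice changed in 0 of the 10 genes and in 0% of all genes tested by limma, with 823 genes at an unadjusted p below 0.05.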

How the data were processed

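EDL muscle RNA of 30 mice was sequenced as directional poly(A) libraries, which the authors aligned to mm10 with Subread, assigned to RefSeq transcripts with featureCounts and quantified as RPKM. Whether strand was used in counting is not given in the sources used here. The authors deposited 1 table of log2 values, log2(RPKM + 1), with 0.0001 for a gene without a read (25.75% of values). This scale was read from low values, of a few reads each, in genes with 1 RefSeq transcript. The size of 1 read was itself fitted to the values of such genes. Of 23044 such values, 62.35% were whole multiples of 1 read (tolerance 0.05 read). The share was 54.79% if they were taken as natural logs of RPKM + 1 and 35.96% if taken as RPKM. The scale with the highest share was used, and all values were converted back to RPKM. Depth was estimated from the same steps, and intervals cover the spread between mice.

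Groups were compared with limma 3.58.1 in R 4.3.3 (lmFit and eBayes with trend) on log2(RPKM + 0.1), which understates changes of low genes, fitting the 15 mice of 1 day together, or all 30 mice for comparisons of days and interactions. A gene was tested if its mean in a compared group exceeded 3 RPKM. It was called if its fold change was over 1.5 and its adjusted p (Benjamini-Hochberg) under 0.05, and by p alone in interactions. The study's EdgeR needs read counts, which were not used here. The model was tested on simulated data. Labels give the replicates as separate mice, no batch is labelled, and no mouse was left out. The 10 genes and all lists were chosen with earlier results of these data known. From each list, the 3 called genes with the largest change in each direction were named, and the 3 genes with the highest correlation to each of the 10. Alternatives were other pseudocounts, filters, scalings, models and leaving out each mouse. Calls of the related lists and cell markers were not recomputed in them. Coordinates and promoters are from RefSeq on GRCm38.p6, the same assembly as mm10.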

Additional observations from a re-analysis of the deposited data

Results flagged for a closer look

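Single mice stood apart from the other 4 of their group in 5 of 60 sets of values (10 genes in 6 groups), by a gap to the nearest mouse that made up more than 0.71 of the whole range, which chance gives in about 1 in 20. In unimmunized mice on day 40, SPP1 of replicate 5 was the highest at 12.6 RPKM (gap 0.808 of the range), FBN1 of replicate 3 was the highest at 20.8 RPKM (0.754), and FBLN1 of replicate 3 was the lowest at 10.4 RPKM (0.711). In OVA-immunized mice on day 40, THBS1 of replicate 2 was the highest at 11.9 RPKM (0.733) and FBLN5 of replicate 5 at 6.37 RPKM (0.722). None of the 5 was in a group of day 14.

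The difference of EAE-induced mice from the controls changed between the days by the interaction test. Against unimmunized mice this held for SPARC (2.50 on the log2 scale), ELN (1.81), FBN1 (1.40) and FBLN1 (-0.54). Of 9013 genes, 16.5% were called higher and 32.1% lower there. The call of FBLN1 was lost in several refits, and SPARC and ELN also fell between the days in unimmunized mice. Against OVA-immunized mice it held for SPARC (1.66), POSTN (1.09), FBN1 (1.06), FN1 (1.06), TNC (0.98) and ELN (0.90), beside 11.1% of 8935 genes called higher. The calls of FN1 and ELN were lost in several refits. The EAE-induced mice are shared by both sets of values.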

How the results depend on the processing

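Of 46 log2 fold changes of the 10 genes recomputed in 1008 refits, 954 kept their direction and call, 40 lost a call, 14 gained one and 0 changed direction, and 32 of the fold changes had no change in any refit. Counts of called genes among the 10 stayed within 1.5 times of the reported count except in 2 comparisons. Between EAE-induced and unimmunized mice on day 40 the count of 1 became 0 with the replicate block (FN1, adjusted p = 0.0764), with only the compared groups and with all 30 mice in 1 model, and ranged from 0 to 3 when single mice were left out. On day 14, the count for OVA-immunized against unimmunized mice ranged from 0 to 1. The cause was not tested. The replicate numbers of the labels did not pair the mice: deviations from the group means of mice with the same number correlated at -0.715 to 0.712 (median 0.02 over 75 pairs), against -0.732 to 0.745 for different numbers, and the replicate block changed no other call of the 46 fold changes.

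Median-of-ratios scaling moved the median of all genes from 0.11 to 0.01 in EAE-induced against unimmunized mice on day 14, and the share of higher among called genes from 55.3% to 42.2%. Against OVA-immunized mice the share moved from 54.3% to 41.3%, between the days in EAE-induced mice from 39.7% to 53.0% and in unimmunized mice from 53.6% to 42.2%. The interactions of EAE against unimmunized mice moved from 33.9% to 48.5%, with 5 of the 10 genes called higher and 0 lower instead of 3 and 1. Those against OVA-immunized mice moved from 31.6% to 51.2%, with 7 instead of 6 genes called higher. Without the fold threshold 4195 instead of 2318 genes were called against unimmunized mice on day 14. On day 40, the 34 genes called lower became 16 with median-of-ratios scaling and 3 with quantile normalization. Depth limits only SPP1, with as few as 22 reads.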

Other observations

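The mice of a group did not rank alike over the 10 genes. Among unimmunized mice on day 14, replicate 1 had the lowest value of the group in 6 of the 10 genes and replicate 5 the highest in 5. Among EAE-induced mice on day 14, replicate 1 was the lowest in 5 genes, and replicate 3, the most deeply sequenced library, was the highest in 4 and the lowest in 0. Among OVA-immunized mice on day 40, replicate 1 was the lowest and replicate 5 the highest in 5 genes each.

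Over the 30 mice, FBLN5 was most like SLC27A1 (r = 0.871), STEAP3 (r = 0.857) and CSF1R (r = 0.834), which encodes the receptor for a macrophage growth factor, and FN1 was most like SCARA3 (r = 0.902) and COL22A1 (r = 0.894). For FBLN1 the closest gene was TSPAN7 at r = 0.722, and for THBS1 it was SLC25A16 at r = 0.791.

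Within the EAE-induced mice, the related lists moved between the days as well. Of all 8709 genes tested, 8.36% were called higher on day 40 and 12.7% lower. Of the elastic fibre partners, 5 of 13 were called higher on day 40 and 1 lower, with MFAP4 at 2.35 and LTBP3 at -0.80. Of the other matricellular genes, 6 of 13 were called higher, led by THBS3 at 1.65, and CYR61 was lower at -1.40. Of the TGF-beta genes 0 of 10 were called higher by limma and 3 lower, led by TGFB3 at -1.01, where 4801 of all genes tested had an unadjusted p below 0.05. Tendon markers were called higher in 5 of 7, led by TNMD at 2.56, and lower in 2, led by SCX at -2.78.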
